A study of Mus musculus with 12 samples.

Results

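A set of 9 genes of the mouse genome were followed here, the Cacna1 genes that encode the pore-forming alpha1 subunits of voltage-gated calcium channels: Cacna1a, Cacna1b, Cacna1c, Cacna1d, Cacna1e, Cacna1g, Cacna1h, Cacna1i and Cacna1s. They are 9 of the 21584 protein-coding genes on the autosomes and the X chromosome, and were taken by name. Each was read over its gene body with 10 kb added on each side (GENCODE annotation, mm39), a window that held 144 of the 86245 hypomethylated regions (HMRs, stretches of CpGs with little methylation). DNA methylation had been measured by tagmentation-based whole genome bisulfite sequencing in FACS-purified β cells of mice labelled Myt1cCre; Ngn3nCre; Rosa26eYFP, InsApple, a genotype that all groups share. Both parts of a split Cre are needed to switch on the reporter, so eYFP+ cells descend from progenitors that made Myt1 together with Neurog3 (M+N+) and eYFP- cells from progenitors that made Neurog3 alone (M-N+), while Apple driven by an insulin promoter marks the β cells themselves. There were 2 libraries of each subtype at postnatal day 2 (P2) and 4 of each at postnatal day 60 (P60), each from cells pooled over several sorts and mice of 1 sex. The sample labels call the reporter eGFP in the titles and give the cell type as all islet cells.

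Voltage-gated calcium channels open when the membrane depolarizes and let Ca2+ into the cell. In a β cell, closure of ATP-sensitive potassium channels after glucose metabolism depolarizes the membrane, and the Ca2+ that then enters through these channels triggers the fusion of insulin granules. The alpha1 subunit forms the pore and the voltage sensor and sets the channel type. Cacna1c and Cacna1d encode the L-type channels Cav1.2 and Cav1.3, which β cells use for insulin secretion, and Cacna1s encodes the L-type channel of skeletal muscle. Cacna1a (P/Q-type), Cacna1b (N-type) and Cacna1e (R-type) are best known from nerve terminals, and Cacna1g, Cacna1h and Cacna1i encode the low-voltage T-type channels. For the comparison below, Cacna1a, Cacna1c, Cacna1d, Cacna1e and Cacna1h were taken as channels used by mouse β cells and the other 4 as little used or not used, from general knowledge and not from any expression value. Promoters of CpG-rich genes are usually free of methylation whether or not the gene is used, and low methylation away from promoters often marks enhancers.

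Read counts were at hand only as 1 pool per subtype and stage, at 24.8 reads per CpG for P2 eYFP-, 25 for P2 eYFP+, 44.7 for P60 eYFP- and 44.4 for P60 eYFP+. A methylation level below is the share of methylated reads in such a pool, and a test between pools compares those pools and not animals. Over a region, reads were summed over its CpGs, so a read that spans several CpGs counts once at each. Tests and intervals on pools take these counts as independent. Where CpGs share reads, their p-values and intervals can come out too small. Single libraries gave HMR positions only, with 55619 to 59870 autosomal HMRs at P2 and 37067 to 48399 at P60. All P2 libraries came in 1 submission and the P60 libraries in 2 later ones, so stage and submission cannot be told apart. The 2 P2 eYFP- libraries carried X-chromosome HMRs against their sex labels, with 25.2 per 1000 autosomal HMRs in the one labelled female and 18.2 in the one labelled male, whereas the P2 eYFP+ libraries had 16.7 and 25.5 in that order; all 9 genes are autosomal. Among the 7 β-cell markers the promoters of Iapp, Slc30a8, Mafa, Pdx1 and Nkx6-1 lay between 0.323% and 14.7% in every pool, Ins2 had 12.6% and 20.6% at P2 (eYFP-, eYFP+) and 4.86% and 5.47% at P60, and Ins1 had 28.3% and 35.1% at P2 and 7.87% and 5.74% at P60. The promoters of the glucagon gene, of the acinar genes Cpa1 and Cela2a, of the endothelial genes Pecam1 and Cdh5 and of the leukocyte gene Ptprc lay between 54.6% and 85.7% in every pool and held no HMR in any library, whereas the CpG-rich promoters of Hhex and Ptf1a were below 2% and that of the δ-cell marker Sst lay between 14.7% and 19.2%. The promoter of the ductal marker Krt19 had 22.8% and 21.2% at P2 and 56.7% and 52.5% at P60, and its part in any result below was not tested.

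The promoter sequences of Cacna1s and of 1 CpG-rich member, Cacna1a, are shown first, because Cacna1s stood apart from the other members and Cacna1a was the CpG-rich one whose level rose between the stages in both subtypes. Each line gives the 250 bases before the start of the canonical transcript in GRCm39 (mm39), 5′ to 3′ along the gene, with CpGs in capitals. The Cacna1a stretch lies at chr8:85141743-85141992 on the plus strand and holds 20 CpGs, and the Cacna1s stretch lies at chr1:135980009-135980258 on the plus strand and holds 2. The rise of Cacna1a was measured over 500 bp on each side of the start, and the bases printed do not show it. Their CpGs had a median of 0% in every pool, and 5 (eYFP-) and 8 (eYFP+) of 21 were higher at P60. The last of these 21 has its G just outside the stretch.
Cacna1a promoter: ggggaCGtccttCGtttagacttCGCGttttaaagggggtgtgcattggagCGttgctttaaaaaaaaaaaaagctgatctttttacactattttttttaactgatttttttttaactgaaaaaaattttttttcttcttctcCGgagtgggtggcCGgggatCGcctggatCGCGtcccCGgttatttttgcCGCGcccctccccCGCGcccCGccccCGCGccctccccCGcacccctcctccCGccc
Cacna1s promoter: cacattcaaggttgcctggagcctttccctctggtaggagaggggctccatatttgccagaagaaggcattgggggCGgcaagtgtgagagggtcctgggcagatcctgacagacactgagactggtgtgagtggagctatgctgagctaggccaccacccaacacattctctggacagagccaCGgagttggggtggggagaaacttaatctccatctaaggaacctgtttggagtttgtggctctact

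Of the 9 genes, 8 had an almost unmethylated promoter in both subtypes at both stages, and Cacna1s, the skeletal muscle channel, did not. Over 500 bp on each side of the start, the Cacna1s promoter, with 18 CpGs, was methylated at 63.5% (95% Wilson interval 59.1 to 67.6, 493 reads) in P2 eYFP-, 61.8% (57.2 to 66.2, 442 reads) in P2 eYFP+, 70.3% (67.5 to 73.0, 1034 reads) in P60 eYFP- and 67.7% (64.8 to 70.4, 1098 reads) in P60 eYFP+. The other 8 promoters, with 47 to 117 CpGs, stayed below 5% in all 4 pools, so the channels taken as little used did not stand together: Cacna1b lay at 0.575%, 1.19%, 0.750% and 0.582%, Cacna1g at 1.03%, 1.52%, 1.06% and 1.39%, and Cacna1i at 2.33%, 3.26%, 2.54% and 3.15%, in the same order of pools. The L-type pair was as low, with Cacna1c at 0.839%, 0.722%, 0.463% and 0.411% and Cacna1d at 1.17%, 0.898%, 0.611% and 0.933%. Such levels are common, since 58.0%, 57.7%, 57.3% and 57.2% of all 21112 promoters with reads lay under 10% in the 4 pools. Intervals cover counting error only.

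Among the 8, Cacna1a was the one gene whose intervals of P2 and P60 were apart in both subtypes. Its promoter had 1.56% (1.08 to 2.24) and 1.93% (1.38 to 2.69) at P2 against 4.48% (3.90 to 5.14) and 4.91% (4.29 to 5.61) at P60. In eYFP+ alone, Cacna1b was lower at P60, at 1.19% (0.874 to 1.62) against 0.582% (0.418 to 0.808). Both differences were below 10 percentage points, the smallest that was called here. Cacna1e stayed at 1.68%, 1.97%, 1.67% and 1.61%, and Cacna1h at 0.729%, 1.02%, 0.889% and 1.05%.

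**Figure D1:**
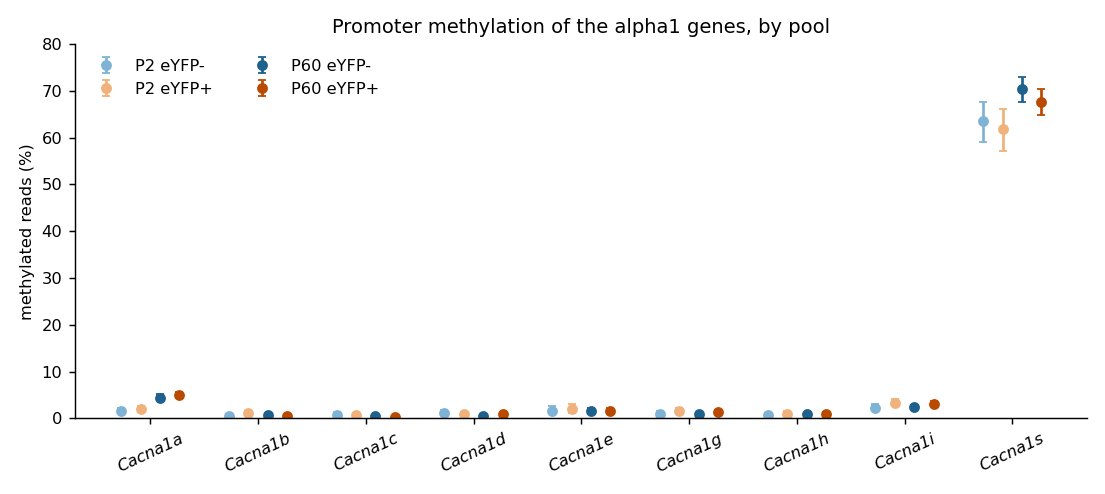
Share of methylated reads (%, y axis) within 500 bp of the canonical start of each alpha1 gene, for the 4 pools, with 95% Wilson intervals as bars. Cacna1s lies between 61.8% and 70.3%, and the other 8 genes lie below 5%, with Cacna1a highest among them at P60.

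Each of the 8 unmethylated promoters sat in an HMR that all 12 libraries held. These ran from 1542 bp in Cacna1e to 3277 bp in Cacna1g and had 75 to 231 CpGs. The start of Cacna1s lay outside any HMR, and the HMR that was nearest to it, at chr1:135978315-135979724, holds the start of its neighbour Ascl5. Several genes had further annotated starts that were methylated. In Cacna1a, for example, a start at 85065224 on chromosome 8 was at 10.7%, 11.1%, 7.86% and 9.14%, while one at 85328602 was at 63.6%, 61.0%, 76.0% and 75.6%. In Cacna1c the start at 119056968 on chromosome 6 went with 13.4%, 13.0%, 8.54% and 6.75%, and the group of 3 starts from 119173192 to 119173851 with 56.9%, 63.2%, 63.8% and 61.3%. That group was read as a whole, and not all of it was methylated. The HMR at chr6:119173527-119173944, which holds an annotated start of Cacna1c, lay at 5.95%, 13.3%, 17.8% and 18.4%.

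HMRs were unevenly spread over the genes. Cacna1c held 37, Cacna1d 30, Cacna1a 28, Cacna1e and Cacna1i 12 each, Cacna1g 9, Cacna1h 8, Cacna1b 5 and Cacna1s 3. Per 100 kb of window that was 10.5 in Cacna1g, 10.1 in Cacna1h, 9.16 in Cacna1i, 8.67 in Cacna1a, 6.36 in Cacna1d, 5.88 in Cacna1c, 3.44 in Cacna1s, 2.79 in Cacna1b and 2.34 in Cacna1e, against a median of 3.72 over the 3311 genes with windows of at least 100 kb. The windows of Cacna1g (86.0 kb), Cacna1h (79.5 kb) and Cacna1s (87.3 kb) are shorter than that. The channels taken as used by β cells had 5.70 HMRs per 100 kb together and the others 6. In both L-type genes the third intron held the largest group, with 19 HMRs over 272276 bp in Cacna1c and 12 over 149934 bp in Cacna1d. The median level of the 19 in Cacna1c was 10.5% and 15.2% at P2 and 11.6% and 11.7% at P60, and 6 of them were found in all 12 libraries. Outside HMRs the windows were methylated at 72.9% to 84.5%, with Cacna1e lowest and Cacna1c highest at P60.

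**Figure D2:**
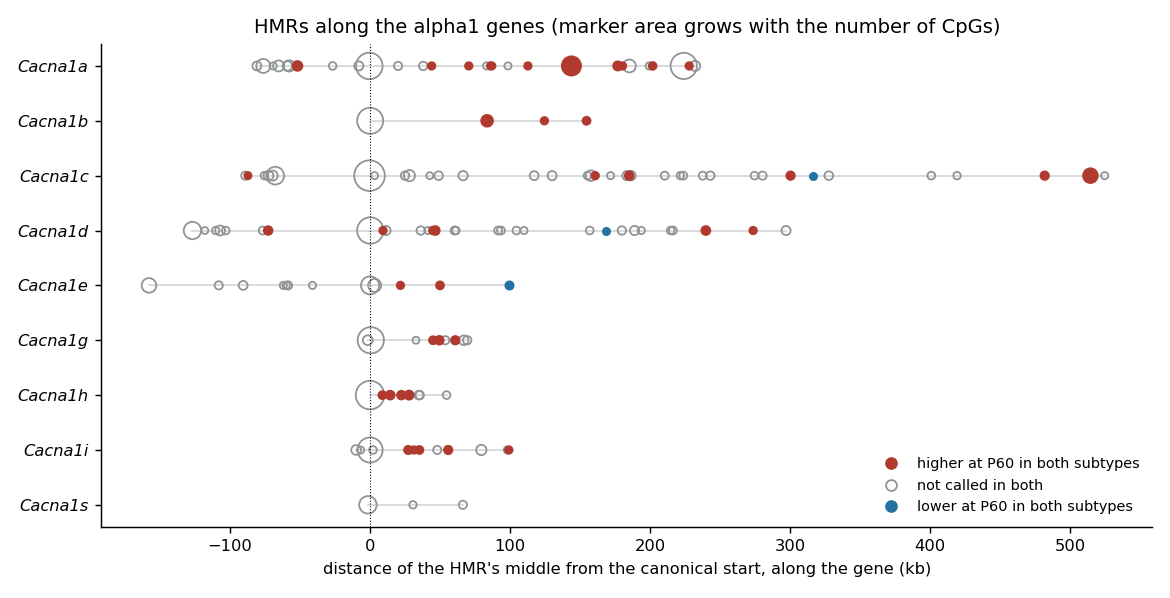
HMRs of the 9 genes by the distance of their middle from the canonical start (kb, x axis, positive along the gene), with marker area growing with the number of CpGs. Filled red markers were called higher at P60 in both subtypes (41), filled blue ones lower (3) and open ones neither. The large open markers at 0 are the promoter HMRs, none of which was called in both subtypes.

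To see how these HMRs changed between P2 and P60, reads of both stages were compared in each HMR and each subtype by a two-sided Fisher's exact test, with Benjamini-Hochberg adjustment over all HMRs tested, and a change was called at an adjusted p under 0.05 and a difference of at least 10 percentage points. The HMRs had been called in the same pools whose reads were tested. An HMR called in some pools and not in others was therefore picked for its low level there. Part of its difference between pools can come from that choice, and how much was not tested. Most changes were gains of methylation. In eYFP- cells 48 of the 144 HMRs were higher at P60 (of all HMRs tested, 28.0% were) and 4 were lower (3.00% of all). In eYFP+ cells 47 were higher (26.6% of all) and 5 lower (3.96% of all). A gain in both subtypes was called for 41 HMRs, 28.5% of the 144 against 22.8% of all HMRs, and a loss in both for 3, 2.08% against 1.73%. The share gained was thus near that of all HMRs. The median change of the 144 was 4.50 points in eYFP- and 4.32 points in eYFP+, and that of all HMRs 2.90 and 2.36 points.

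The channels little used or not used by β cells had the larger share of gains. A gain in both subtypes was called in 12 of their 29 HMRs (41.4%) and in 29 of the 115 HMRs of the used channels (25.2%), with no test since HMRs of a gene are not replicates. By gene the counts were 4 of 5 in Cacna1b, 4 of 8 in Cacna1h, 5 of 12 in Cacna1i, 11 of 28 in Cacna1a, 3 of 9 in Cacna1g, 6 of 30 in Cacna1d, 2 of 12 in Cacna1e, 6 of 37 in Cacna1c and 0 of 3 in Cacna1s. The order does not follow use: Cacna1h and Cacna1a, taken as used, were among the genes with the larger shares, and Cacna1s, taken as not used, had none. The L-type pair of the β cell, Cacna1c and Cacna1d, had 12 gains among 67 HMRs (17.9%), below the 22.8% of all HMRs. None of the 20 HMRs at a start of the genes themselves was gained in both subtypes, and 1 was in eYFP- alone. Without those, the shares were 29.6% of 98 for the used channels and 46.2% of 26 for the others.

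**Figure D3:**
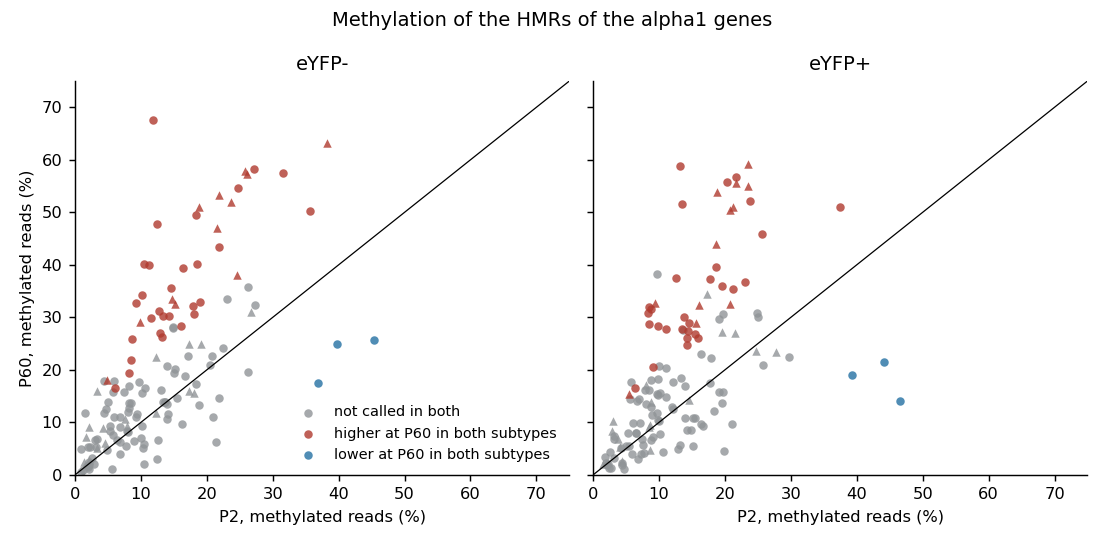
Methylated reads (%) of the 144 HMRs at P2 (x axis) and P60 (y axis) in the eYFP- pools (left) and the eYFP+ pools (right), with circles for the channels used by β cells, triangles for the others, and a line of equal levels. The 41 gains called in both subtypes lie above the line and the 3 losses below it.

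A CpG-dense exon gained methylation in both of 2 related genes, Cacna1a and Cacna1b, whose channels act at nerve terminals. The middle of each HMR is shown because the sites can be followed one by one. The lines give 300 bases in the gene's direction with CpGs in capitals, for Cacna1a at chr8:85285790-85286089 on the plus strand with 51 CpGs and for Cacna1b at chr2:24569300-24569599 on the minus strand with 16.
Cacna1a exon 19: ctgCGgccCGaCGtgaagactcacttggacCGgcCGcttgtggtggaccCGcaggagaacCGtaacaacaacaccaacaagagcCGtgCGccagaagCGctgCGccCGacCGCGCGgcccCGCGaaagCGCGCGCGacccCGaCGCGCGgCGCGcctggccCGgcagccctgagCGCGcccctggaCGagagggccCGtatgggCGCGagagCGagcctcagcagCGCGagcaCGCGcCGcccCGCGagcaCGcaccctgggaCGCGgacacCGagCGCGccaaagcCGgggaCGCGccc
Cacna1b exon 19: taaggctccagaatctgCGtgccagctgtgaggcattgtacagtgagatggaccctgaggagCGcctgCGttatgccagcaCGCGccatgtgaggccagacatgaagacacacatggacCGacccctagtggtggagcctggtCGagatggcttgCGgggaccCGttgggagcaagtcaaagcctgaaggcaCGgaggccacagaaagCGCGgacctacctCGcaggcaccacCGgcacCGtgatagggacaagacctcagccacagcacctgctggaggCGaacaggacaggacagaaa

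The whole HMR in exon 19 of Cacna1a (chr8:85285680-85286200, 86 CpGs) was methylated at 27.2% of 1951 reads in P2 eYFP- and 21.7% of 1807 reads in P2 eYFP+, against 58.2% of 5221 reads in P60 eYFP- and 56.8% of 4617 reads in P60 eYFP+. The rise was 31.0 points in eYFP- (Fisher's exact test with Benjamini-Hochberg adjustment, adjusted p = 1.61e-120) and 35.1 points in eYFP+ (adjusted p = 2.11e-145), the largest gain of the gene. In single libraries, all 4 at P2 and 0 of 8 at P60 held an HMR there. In the stretch printed, 50 of 50 CpGs with reads were higher at P60 in eYFP- and 50 of 50 in eYFP+. Levels of single CpGs nevertheless ranged from 14.0% to 86.8% in P60 eYFP-.

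In Cacna1b, the HMR at chr2:24569260-24569640 in exon 19 (27 CpGs) went from 21.9% of 835 reads and 20.8% of 865 reads at P2 to 53.2% of 1907 reads and 50.4% of 1827 reads at P60, in eYFP- and eYFP+. The rise was 31.3 points (adjusted p = 3.56e-52, same test) and 29.5 points (adjusted p = 3.26e-48). It too was present in all 4 P2 libraries and in 0 of 8 P60 libraries. Of the 16 CpGs printed, 16 were higher at P60 in eYFP- and 14 in eYFP+. The exons are 675 and 768 bp long with 105 and 56 CpGs in Cacna1a and Cacna1b. In Cacna1e, the third gene of this group, the exon numbered 19 is 57 bp long with 2 CpGs and was methylated at 95.1%, 97.1%, 88.6% and 90.7%. Exons were matched by number and not by sequence, and the other exons of Cacna1e were not compared. The comparison of exon 19 between genes was chosen after the values were seen.

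**Figure D4:**
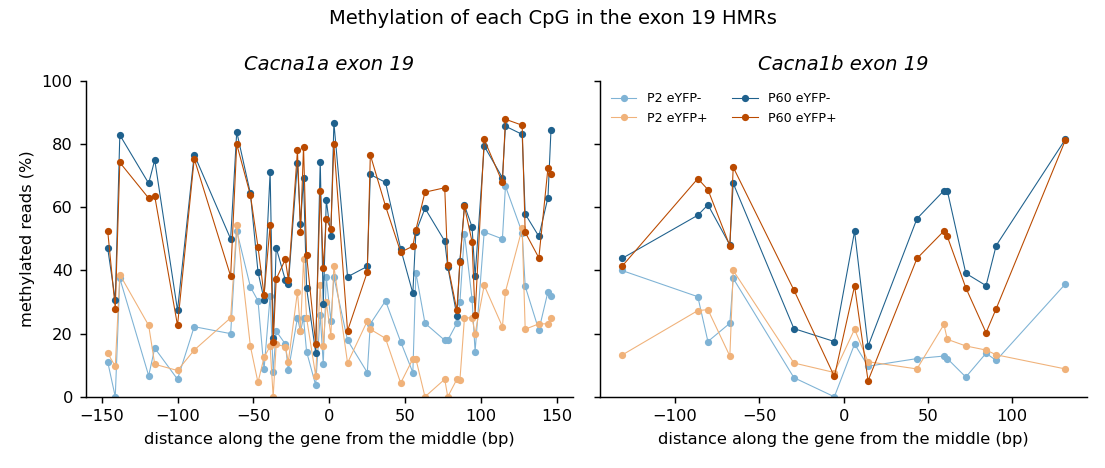
Methylated reads (%, y axis) at each CpG in the middle 300 bases of the exon 19 HMRs of Cacna1a (left) and Cacna1b (right), by distance from the middle along the gene (bp), with 1 line per pool. The P60 lines lie above the P2 lines at 50 of 50 CpGs of Cacna1a in either subtype, and at 16 (eYFP-) and 14 (eYFP+) of 16 CpGs of Cacna1b.

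In Cacna1h, a T-type channel gene, 4 of the 5 HMRs of intron 2 gained methylation in both subtypes. The strongest, at chr17:25637899-25638405 (12 CpGs), had 12.5% (335 reads) in P2 eYFP-, 13.5% (303 reads) in P2 eYFP+, 47.8% (757 reads) in P60 eYFP- and 51.5% (779 reads) in P60 eYFP+. Both rises passed the Fisher's exact test with Benjamini-Hochberg adjustment (adjusted p = 1.05e-29 and 5.55e-31). A second, at chr17:25643543-25643889, rose from 11.2% and 12.6% to 40.0% and 37.4%. Both were held by all 4 P2 libraries and by 0 of 8 P60 libraries, while the HMR at the gene's promoter stood at 3.12%, 2.48%, 5.21% and 4.35%. The middle of the strongest is given at chr17:25638002-25638301 in the direction of the gene (minus strand), with CpGs in capitals, because it shows a gain over few CpGs (7) rather than in a CpG-dense exon.
Cacna1h intron 2: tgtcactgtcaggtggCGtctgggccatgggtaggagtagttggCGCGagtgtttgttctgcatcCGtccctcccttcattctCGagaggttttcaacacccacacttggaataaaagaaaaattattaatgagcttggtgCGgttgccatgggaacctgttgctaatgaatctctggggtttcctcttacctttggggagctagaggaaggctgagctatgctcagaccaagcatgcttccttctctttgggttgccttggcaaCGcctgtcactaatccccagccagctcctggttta

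Cacna1i, another T-type gene, gained methylation at 5 HMRs in introns 2, 4, 5 and 29. The largest, at chr15:80202748-80203075 in intron 2, went from 25.8% and 18.8% to 57.8% and 53.8% and was an HMR in no single library. In Cacna1g the largest, in intron 24 (chr11:94315437-94315660), went from 26.1% and 21.7% to 57.3% and 55.6%, and was found in the 2 P2 eYFP+ libraries and no other. Another Cacna1g HMR, in exon 21 (chr11:94319731-94320338), was in all 4 P2 and 0 of 8 P60 libraries and went from 15.1% and 15.6% to 32.5% and 28.9%. Of the 144 HMRs, 6 had this pattern of all P2 and no P60 library (4.17%, against 5.36% of all HMRs), and 44 were in all 12 libraries (30.6% against 35.8%).

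The greatest single gain among the members was in Cacna1c, upstream of its canonical start within the gene's longer transcripts. This HMR of 5 CpGs, at chr6:119171722-119171905, stood at 11.8% (169 reads) and 13.2% (129 reads) at P2, and at 67.6% (272 reads) and 58.8% (243 reads) at P60, for eYFP- and eYFP+ in turn (adjusted p = 7.88e-31 and 2.87e-17, same test). It was called in pools only, in no single library. In eYFP- 4 of its 5 CpGs were higher at P60, for example from 5.41% to 69.7% at position 119171722 in eYFP-, while the CpG at position 119171848 stayed at 0% of 25 reads and 0% of 21 reads. The largest loss of the gene was in intron 3 (chr6:118768836-118769016), from 39.8% and 44.1% at P2 to 24.9% and 21.5% at P60, and that of Cacna1d in intron 4 (chr14:29907007-29907149), from 45.4% and 46.5% to 25.6% and 14.0%. Neither was an HMR in any single library. The 3 regions are shown in the direction of their genes (minus strand) with CpGs in capitals, each up to the last base of its last CpG, to show the few CpGs behind gain and loss. In the Cacna1c loss the CpG at position 118768836 had 0 reads at P2, so that 4 CpGs at P2 were set against 5 at P60. Of those 4, 0 were higher at P60 in eYFP- and 1 was in eYFP+, at position 118768991, with 13.2% at P2 and 16.1% at P60.
Cacna1c gain, chr6:119171722-119171906: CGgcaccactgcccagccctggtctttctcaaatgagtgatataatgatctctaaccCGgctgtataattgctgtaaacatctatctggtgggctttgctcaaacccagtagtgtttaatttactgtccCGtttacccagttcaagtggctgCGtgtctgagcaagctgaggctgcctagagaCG
Cacna1c loss, chr6:118768836-118769017: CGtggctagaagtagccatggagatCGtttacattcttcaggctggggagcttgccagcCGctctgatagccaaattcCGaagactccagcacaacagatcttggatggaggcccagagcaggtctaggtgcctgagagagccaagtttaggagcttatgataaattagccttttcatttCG
Cacna1d loss, chr14:29907007-29907150: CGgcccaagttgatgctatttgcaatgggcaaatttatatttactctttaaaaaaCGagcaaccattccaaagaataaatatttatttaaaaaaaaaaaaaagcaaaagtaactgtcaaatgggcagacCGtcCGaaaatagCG

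The third loss was in Cacna1e, the R-type channel gene, in intron 6 (chr1:154502906-154503616, 9 CpGs). Its level was 36.8% and 39.3% at P2 and 17.5% and 19.1% at P60, so that it fell by 19.3 points in eYFP- (adjusted p = 5.01e-06, Fisher's exact test with Benjamini-Hochberg adjustment) and fell by 20.2 points in eYFP+ (adjusted p = 1.24e-06). It was an HMR in 0 of 4 P2 libraries and in 2 P60 libraries of each subtype. The largest gain of Cacna1e, in intron 1 (chr1:154580489-154580679), went from 10.1% and 8.28% to 34.2% and 30.8%. In Cacna1d the largest gain lay in intron 3 (chr14:30065828-30066109), from 18.3% and 25.6% to 49.5% and 45.9%, and in Cacna1b in exon 33 (chr2:24528381-24528692), from 18.8% and 23.5% to 51.1% and 55.0%. The latter 2 were called in pools only.

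Low HMRs without a called change were also part of these genes. No change of 10 points or more was called in either subtype at 84 of the 144 HMRs, whose median level was 7.92% and 8.78% at P2 and 10% and 9.63% at P60, and 43 of them were in all 12 libraries. Smaller changes are among them, such as that of the promoter HMR of Cacna1a, from 3.05% and 3.22% at P2 to 6.59% and 7.42% at P60 (adjusted p = 7.26e-15 and 3.29e-19, Fisher's exact test). At the far end of Cacna1a, an HMR over exons 46 and 47 (chr8:85364994-85367110, 168 CpGs) lay at 2.50%, 3.12%, 3.12% and 3.17% and was in all 12 libraries; it also holds the start of Gm39212, a long noncoding RNA. The HMRs that hold the starts of Dcp1b, within Cacna1c, and of Dcp1a, within Cacna1d, were below 3% in every pool.

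The single libraries allowed a related question to be asked with replicates, on HMR length and not on methylation level. The HMR length in each gene's window was divided by the library's autosomal HMR length, as bp per Mb, and compared between the 4 P2 and 8 P60 libraries by a two-sided exact permutation test with Benjamini-Hochberg adjustment over 17479 genes, the smallest possible p being 0.00202. For Cacna1h the P2 libraries had 76.6 and 74.9 (eYFP-) and 83.4 and 76.3 (eYFP+) bp per Mb. Its P60 libraries had 60, 65.0, 52.7 and 62.2 (eYFP-) and 63.0, 65.8, 63.1 and 64.7 (eYFP+). All P60 libraries were thus below all P2 libraries, with means of 77.8 ± 3.83 (SD, n = 4) and 62.1 ± 4.19 (SD, n = 8), and the fall by 15.7 passed the test (exact permutation p = 0.00202, adjusted p = 0.00613). The test counts each library as independent, although eYFP- and eYFP+ libraries of 1 number deviated together at P60. Within 1 subtype, where the smallest possible p is 0.0667, no gene could be called, and the change of Cacna1h was -15.8 in eYFP- and -15.7 in eYFP+ (exact permutation, adjusted p = 0.158 and 0.143).

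Cacna1i was lower as well. Its P2 libraries had 77.7 and 73.0 (eYFP-) and 68.7 and 81.6 (eYFP+) bp per Mb and its P60 libraries 58.4, 50, 43.0 and 55.8 (eYFP-) and 47.4, 56.7, 58.2 and 69.6 (eYFP+). A single P60 library, eYFP+ replicate 4, lay above the lowest at P2, and the change was -20.3 (exact permutation p = 0.00404, adjusted p = 0.0108). Cacna1s fell by 5.45 (exact permutation p = 0.0182, adjusted p = 0.0366), with 26.9 to 32.7 at P2 and 21.6 to 28.7 at P60, a range that overlaps. The HMR of the Ascl5 start, in the flank of this window, is the only one of its 3 HMRs that all 12 libraries held, so part of this length belongs to the neighbour. The call was lost over the gene body alone (-3.35, adjusted p = 0.104), with HMRs of at least 10 CpGs (adjusted p = 0.295), with the number of HMRs in place of length (adjusted p = 0.542), and when any of 7 single libraries was left out (adjusted p from 0.0526 to 0.0981, all by the exact permutation test).

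Cacna1c went the other way on this scale. Its P2 libraries had 335.2 and 313.9 (eYFP-) and 335.7 and 328.5 (eYFP+) bp per Mb and its P60 libraries 385.0, 376.3, 355.2 and 358.0 (eYFP-) and 377.6, 336.6, 369.1 and 335.6 (eYFP+), a change of 33.3 (exact permutation p = 0.0101, adjusted p = 0.0229). The stages met at the edge, where 335.6 at P60 lay just under 335.7 at P2. In bp as deposited, without division by the library's HMR length, its direction turned, from 17354 to 19334 bp at P2 down to 14611 to 17101 bp at P60 (change of -2437, adjusted p = 0.00615 by the same permutation test). Over all genes 38.5% were called higher per Mb at P60 and 13.3% lower, and the median change was 4.46, so a gain relative to the library was common. The call of Cacna1c was lost without P2 eYFP- replicate 2 (adjusted p = 0.0611) or P2 eYFP+ replicate 2 (adjusted p = 0.0510), and with the number of HMRs in place of length (adjusted p = 0.125).

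The remaining 5 genes were not called by length over the whole window. Cacna1g had means of 126.6 and 113.2 bp per Mb at P2 and P60 (adjusted p = 0.0535, exact permutation test), Cacna1a a change of 30.5 (adjusted p = 0.0935), Cacna1b of -4.98 (adjusted p = 0.133), Cacna1d of -16.3 (adjusted p = 0.301) and Cacna1e of 6.56 (adjusted p = 0.505). Which genes were called depended on the measure. Over the gene body alone Cacna1g (-13.1, adjusted p = 0.00941) and Cacna1b (-7.85, adjusted p = 0.0170) were called lower at P60 by the exact permutation test, as they were by the number of HMRs (adjusted p = 0.0292 and 0.0111). With HMRs of at least 10 CpGs, Cacna1d was called lower (-29.0, adjusted p = 0.0221). Cacna1h and Cacna1i were called lower under all 3 of these measures. The shares of all genes called under these measures were not counted. Cacna1b had 2 to 4 HMRs in its window in P2 libraries and 1, that of its promoter, in all 8 P60 libraries. In bp as deposited, the direction turned in Cacna1a (-1655 bp, adjusted p = 0.0861, exact permutation test) and in Cacna1e (-1109 bp, adjusted p = 0.0473).

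**Figure D5:**
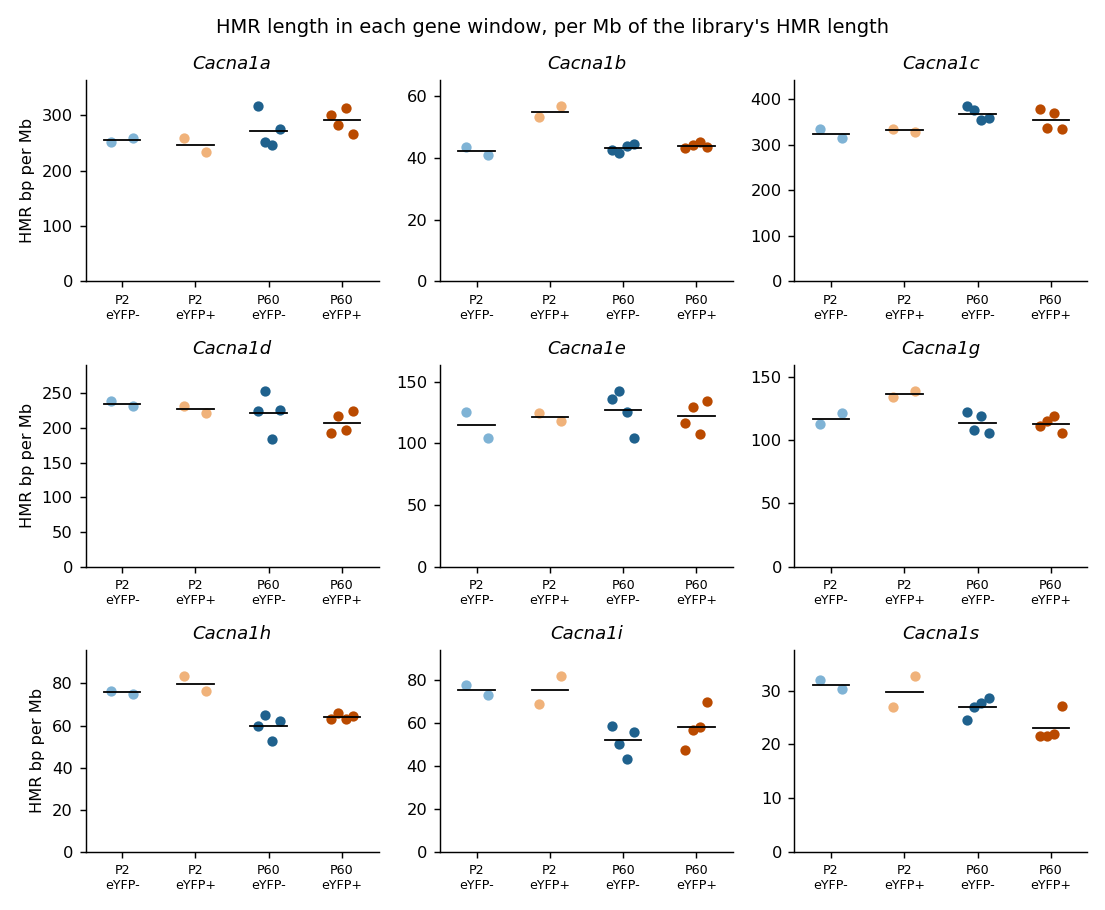
HMR length in each gene's window, in bp per Mb of the library's autosomal HMR length (y axis, from 0), with 1 point per library and a line at each group's mean. All 8 P60 libraries of Cacna1h lie below its 4 P2 libraries, and Cacna1c runs the other way on this scale.

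Between the subtypes, few HMRs of the channel genes differed. At P2, 2 of 144 were higher in eYFP+ (0.884% of all HMRs were) and 4 were lower (0.467% of all), by the same Fisher's exact test. At P60, 0 were higher (0.366% of all) and 1 was lower (0.391% of all). Cacna1d carried 4 of these 7 and Cacna1a, Cacna1b and Cacna1h 1 each. The subtype tests, too, used reads of the pools in which the HMRs had been called, so part of a difference can come from that choice. At P60, 4 libraries against 4 showed no gene with a called difference in HMR length over 17218 genes (exact permutation test, adjusted p = 1.00 for each of the 9 genes), with 304 genes, and none of the 9, at an unadjusted p under 0.05. In a design of this size a call needs at least 9839 genes at the smallest possible p, so the count of 0 says little. Within the 4 pairs of P60 libraries of the same number, Cacna1h was higher in eYFP+ in 4 of 4 and Cacna1s lower in 4 of 4, where 4 pairs cannot give a two-sided exact p under 0.125. In every other member the pairs were split, so these 2 genes are the extremes of the 9, and the pairs give no call for either. The share of all genes with 4 of 4 in either direction was not counted. At P2, 2 libraries against 2 cannot reach a p under 0.333. Without a test, Cacna1b had 43.4 and 41.0 bp per Mb in eYFP- and 53.1 and 56.8 in eYFP+ at P2. Cacna1g had 112.9 and 121.0 against 133.8 and 138.6, with no overlap in either gene. Cacna1d did not overlap either and went the other way, with 238.2 and 232.2 against 231.6 and 222.2. In every other member the libraries of the 2 subtypes overlapped at P2. A split without overlap gives the smallest possible exact permutation p here, 0.333, so it says little by itself. How many of all genes lack overlap was not counted.

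The sites in Cacna1d, the main L-type gene beside Cacna1c, lay in intron 3 and upstream of the canonical start. At chr14:29965274-29965428 (5 CpGs) the P2 level was 0.820% (122 reads, 95% Wilson interval 0.145 to 4.50) for eYFP- against 14.3% (140 reads, interval 9.44 to 21.0) for eYFP+, a difference of 13.5 points (adjusted p = 0.00575, Fisher's exact test), and at P60 4.86% and 8.44%. At chr14:29970403-29971063, in the same intron, the P2 levels were 4.65% and 15.2% (adjusted p = 0.0341, Fisher's exact test). In the opposite direction, chr14:30038877-30039124 had 20.4% and 10% at P2 (adjusted p = 0.0419, Fisher's exact test) and 20.9% and 20.8% at P60. The HMR that differed at P60, at chr14:30151636-30151887, had 28.0% of 368 reads in eYFP- and 15.3% of 347 reads in eYFP+ (adjusted p = 0.00664, Fisher's exact test), and single libraries held it in 0 of 4 eYFP- and 2 of 4 eYFP+ cases.

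In Cacna1a, 1 short HMR changed differently in the subtypes. At chr8:85341328-85341450, which overlaps exon 37 (5 CpGs), eYFP- had 27.3% of 150 reads at P2 and 32.3% of 362 reads at P60, and eYFP+ had 9.66% of 145 reads and 38.3% of 347 reads. The P2 difference of -17.7 points was called (adjusted p = 0.0106, Fisher's exact test), the P60 difference of 6.01 points was not (adjusted p = 0.472), and the stage change itself differed between the subtypes (Wald test of the 2 log odds ratios, adjusted p = 0.0112; 1.17% of all HMRs passed). No single library held an HMR there. In Cacna1b the smaller HMR of exon 19 (chr2:24569100-24569188) had 38.2% and 23.5% at P2 (adjusted p = 0.00917, Fisher's exact test) and was found in 0 of 2 eYFP- and 2 of 2 eYFP+ libraries, and by P60 it stood at 63.2% and 59.2%. In Cacna1h, chr17:25624353-25625040 in intron 2 had 35.6% and 23.8% at P2 (adjusted p = 0.0430, Fisher's exact test) and 50.3% and 52.2% at P60. The regions of largest difference in Cacna1d (minus strand) and Cacna1a (plus strand) are given in the genes' direction with CpGs in capitals, to show how few sites carry them.
Cacna1d intron 3, chr14:29965274-29965429: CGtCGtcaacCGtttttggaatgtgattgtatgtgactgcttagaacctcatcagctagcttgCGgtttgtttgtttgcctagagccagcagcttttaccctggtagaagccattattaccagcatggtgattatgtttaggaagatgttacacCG
Cacna1a exon 37, chr8:85341328-85341451: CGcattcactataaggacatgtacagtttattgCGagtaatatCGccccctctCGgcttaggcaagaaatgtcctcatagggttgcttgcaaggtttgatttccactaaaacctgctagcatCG

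Letters of 4 short motifs were looked for on both strands in 300 bases around the middle of each HMR. TGTTTAC, the core bound by FOXA factors, was found in 10 of 144 HMRs (6.94%, against 7.81% of all 86245), TAATTA, a homeodomain core, in 14 (9.72% against 10.8%), CAGATGG, an E-box of the NEUROD type, in 21 (14.6% against 9.57%) and TGCTGAC, part of the MAF element, in 14 (9.72% against 6.90%). Among the 37 HMRs of Cacna1c, TGTTTAC was in 4, TAATTA in 3, CAGATGG in 6 and TGCTGAC in 5. Among the 30 of Cacna1d, the counts were 1, 5, 3 and 5 in that order. A match describes the letters only.

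Other genes of the same pathway were counted from a list of 17: the auxiliary subunits Cacna2d1 to Cacna2d4 and Cacnb1 to Cacnb4, the ATP-sensitive potassium channel genes Kcnj11 and Abcc8, the channels Kcnma1, Scn9a and Trpm5, and the Ca2+ store genes Ryr2, Itpr3, Stim1 and Orai1. Of 182 HMRs tested in both subtypes 48 were higher at P60 in both (26.4%) and 8 lower (4.40%), against 22.8% and 1.73% of all. The promoter of Cacnb2, whose product is a β subunit that carries alpha1 to the membrane, stood at 26.0% and 23.7% at P2 and 60.5% and 56.9% at P60, and that of Cacnb3 at 0.997%, 1.41%, 2.58% and 1.90%. Abcc8, which encodes the sulfonylurea receptor, had 4 of the 8 losses beside 3 gains among 22 HMRs. Subtype differences were called at 3 of these HMRs at P2 and 0 at P60. Of all HMRs tested, 0.884% were higher and 0.467% lower in eYFP+ at P2, and 0.366% and 0.391% at P60.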

How the data were processed

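T-WGBS was analysed for 12 libraries of sorted mouse β cells in 4 groups given by the sample titles. Per the sources used here, the authors trimmed reads with Trim Galore 0.6.6 and cutadapt 1.16, checked them with FastQC, mapped them to mm39 with abismal and called methylation and HMRs with MethPipe. The deposited tables hold counts of methylated and unmethylated reads per CpG, summed by the authors over the libraries of a subtype at each stage. Pool identity was checked against the labelled libraries: HMRs called only in the P2 eYFP- pool were found in 23.5% to 29.2% of cases in P2 eYFP- libraries and in 5.80% to 6.55% in P2 eYFP+ libraries. The deposited score column and DMR lists, which hold the authors' own comparison, were not used. All 21199058 CpGs listed at P60 were CG in GRCm39, the source of the sequences with GENCODE vM39.

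Overlapping pooled HMRs were merged to 86245, and reads were summed over each. The HMRs covered by 10 or more reads in each of the compared pools were tested with scipy 1.17.1 (Fisher's exact test, Benjamini-Hochberg, 95% Wilson intervals), and the subtypes' stage changes by a Wald test with 0.5 added to each cell. limma 3.58.1 on log2 ratios was an alternative. Tests were tried on simulated data first. Members, lists and tests were chosen with earlier results of these data known. Named HMRs are those at promoters, those with the largest change between stages called in both subtypes, in each direction, and those with the largest subtype difference called; others named were chosen after their values were seen. Nothing says that libraries came from separate animals beyond the pooled sorts, so p-values over libraries measure the spread between these libraries. Same-numbered P60 libraries deviated together over HMRs (r = 0.150, 0.204, 0.309 and 0.140), so their numbers were treated as pairs in an alternative; replicate 2 correlated higher with another number (0.232). Of the lists of other genes, 2 entries are not reported here.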

Additional observations from a re-analysis of the deposited data

Results flagged for a closer look

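In Cacna1s, eYFP+ replicate 4 at P60 had an HMR length of 27.2 bp per Mb, apart from the 21.6, 21.6 and 22 of the other 3 libraries (gap over range 0.929). Chance sets apart about 1 in 20 groups by this measure, and 18 groups were looked at. In Cacna1a, the HMR over exon 37 rose from P2 to P60 by 23.7 points more in eYFP+ than in eYFP- (Wald test, adjusted p = 0.0112), and no single library held an HMR there. This HMR was called only in the pools, whose reads were also those tested.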

How the results depend on the processing

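A minimum of 50 reads left every count of called HMRs as it was. At 20 points or more, the stage calls fell from 52 to 21 (eYFP-), from 52 to 24 (eYFP+) and from 44 to 17 (both subtypes), and subtype calls to 0 at P2 and 0 at P60. With no minimum difference the stage calls were 78 in eYFP- (from 52), 84 in eYFP+ (from 52) and 64 in both subtypes (from 44). The subtype calls were then 8 at P2 (from 6) and 4 at P60 (from 1). With pooled HMRs of at least 10 CpGs, which leave 66 HMRs, the calls were 18, 18 and 17 for stage, and between subtypes 3 at P2 and 0 at P60. limma gave 49 HMRs changed between stages. Shares gained in both subtypes were 8.70% (used) and 24.1% (others) at 20 points, 33.9% and 58.6% with no minimum, and with gene bodies only 25.2% and 52.2%. By library, members called between stages went from 4 to 8 with lengths in bp as deposited, all lower, and Cacna1c (-2437 bp) and Cacna1e (-1109 bp) turned. Cacna1a turned as well (-1655 bp), without a call (exact permutation test, adjusted p = 0.0861). Undivided lengths were also smaller in whole libraries, with 53.7 to 57.6 Mb of autosomal HMRs at P2 and 41.9 to 44.4 Mb at P60. For this and the other alternative measures by library, the share of all genes called was not counted. Leaving out 1 library gave 2 to 4 members called (2 without replicate 2 of either P2 subtype). With P60 replicates 1 and 2 only, 3 and 4 only, or 1 subtype only (added after the data were seen), 0 were called; with fewer libraries the smallest possible p is larger. With the replicate block, 0 members were called between subtypes at P60, but 4 pairs cannot reach a p under 0.125, so this says nothing of the pairing. By gene body alone 5 members were called between stages, and by HMR number or with HMRs of at least 10 CpGs 4, not all of them the 4 called by length. HMRs of under 100 reads at P2 limit what small differences can be seen.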
